A study of Caenorhabditis elegans with 2 samples.

Results

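Binding of the tagged zinc finger protein SPR-3 was examined at 6 genes of Caenorhabditis elegans that encode histone acetyltransferases, namely cbp-1, pcaf-1, mys-1, mys-2, mys-4 and hat-1, out of 19973 protein-coding genes on the 6 nuclear chromosomes. The genes are a set by function that was chosen from measured values of these libraries, because the pooled peak upstream of cbp-1 stood among the highest. The values at these genes are therefore given as a description, with no test. Around each gene, every deposited summit (the position of highest signal in an interval) within the gene or 5 kb either side was collected.

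Chromatin immunoprecipitation and sequencing (ChIP-seq) had been done on whole mixed-sex L4 larvae of strain OP703, aged 49 hours, from cultures synchronised by starvation at the L1 stage after bleaching. The worms carry the mutation unc-119(tm4063) and the transgene wgIs703, which holds spr-3::TY1::EGFP::3xFLAG with a rescuing unc-119(+), and the samples' descriptions name an anti-GFP antibody, while their antibody field reads spr-3. The material was 1 group of 2 biological replicates of 1 transgenic line, with no second condition and no untagged line among the samples. The 4 deposited lists on the ce11 assembly were 30000 candidate intervals for each replicate, 30000 for both libraries pooled, and a thresholded set of 945 peaks kept by the irreproducible discovery rate (IDR). All 945 were the candidates of highest pooled signal. The lowest pooled signal inside the set was 138.043 (rank 945) and the highest outside it was 138.035 (rank 946).

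Histone acetyltransferases transfer acetyl groups to lysines of histones, which is associated with open chromatin and active transcription. CBP-1 is the worm counterpart of the coactivators CBP and p300, and PCAF-1 that of GCN5 and PCAF. MYS-1, MYS-2 and MYS-4 belong to the MYST family, in which MYS-1 corresponds to human TIP60 and MYS-2 to human MOF. HAT-1 corresponds to the enzyme that in yeast and mammals acetylates newly made histone H4 before it is placed on DNA. SPR-3 carries C2H2 zinc fingers and is known from genetic screens for suppressors of the presenilin mutant sel-12.

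Of the 6 genes, cbp-1 and hat-1 had a thresholded peak, and both peaks lay upstream of the gene on chromosome III. The sequences at these peaks are shown because no other member had one. Each is the plus strand of WBcel235 (RefSeq assembly, the same coordinates as ce11), 300 bases centred on the pooled summit. The summit of cbp-1 is at III 9765625, in chrIII:9765475-9765774, and that of hat-1 at III 10407485, in chrIII:10407335-10407634. Capitals mark the longest run of letters that both windows hold and, in hat-1, a match to a short word described further on.

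cbp-1: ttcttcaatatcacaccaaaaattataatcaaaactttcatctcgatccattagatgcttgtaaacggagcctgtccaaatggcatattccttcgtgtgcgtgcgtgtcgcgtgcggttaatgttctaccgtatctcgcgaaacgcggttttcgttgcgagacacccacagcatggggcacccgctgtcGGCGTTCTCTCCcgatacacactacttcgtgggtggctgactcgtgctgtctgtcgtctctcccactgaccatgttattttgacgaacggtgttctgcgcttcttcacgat

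hat-1: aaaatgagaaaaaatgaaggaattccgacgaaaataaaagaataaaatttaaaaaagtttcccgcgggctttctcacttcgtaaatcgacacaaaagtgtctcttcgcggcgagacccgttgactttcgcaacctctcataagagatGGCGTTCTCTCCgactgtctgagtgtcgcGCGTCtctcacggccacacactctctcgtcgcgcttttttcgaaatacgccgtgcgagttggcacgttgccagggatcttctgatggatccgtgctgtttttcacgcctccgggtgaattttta

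The run of capitals that both windows hold is GGCGTTCTCTCC, 12 bases on the same strand in each, and was singled out after the sequences were seen. It starts 39 bases to the right of the cbp-1 summit (III 9765664 to 9765675) and 3 bases to the left of the hat-1 summit (III 10407482 to 10407493). Of the 945 windows of this length at thresholded summits, 2 hold it, these 2. Of 19973 protein-coding promoters of the same length (250 bases before to 50 after the 5′ end) 1 holds it, that of hat-1 itself, where it is the same copy. Sharing a run of 12 bases was less rare, since 23 of the other 944 windows (2.44%) hold some such run in common with the cbp-1 window. The first 8 letters of the run, GGCGTTCT, were in 0.317% of thresholded windows and 0.345% of promoters, and the last 8, TTCTCTCC, in 4.34% and 2.34%. G and C made up 49.7% of the cbp-1 window and 47.3% of the hat-1 window, against a median of 43.3% over the 945 windows (interquartile range 38.7 to 48.0%) and 34.3% over promoters.

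The windows were also searched on both strands for 3 words taken from an earlier look at these summits, GACGC, GAGACGCA (which contains GACGC) and GCGCCAGC (which does not). Only GACGC was found, once, in the hat-1 window, as its reverse complement GCGTC 26 bases to the right of the summit. The cbp-1 window holds none of the 3. GACGC was in 45.0% of thresholded windows and 19.3% of promoters, GAGACGCA in 11.2% and 3.32%, and GCGCCAGC in 5.08% and 0.581%. The words came from these same summits, so their higher shares in thresholded windows are not read as a result.

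The peak at cbp-1 was the highest found at the 6 genes. The gene (WBGene00000366, III 9766509 to 9774825, plus strand) has 4 annotated transcripts that start within 7 bp of each other. The summit lay 884 bp upstream of the 5′ end in the pooled list, 899 bp in replicate 1 and 885 bp in replicate 2. Its signal, the authors' peak caller value for ChIP against control, was 323.7 in replicate 1 (rank 20), 273.5 in replicate 2 (rank 25) and 601.9 in the pool (rank 21). Both libraries thus placed it among their 25 highest candidates. How the separate lists were scaled to depth is not stated, so the ratio of the replicates was set beside the same ratio at other peaks. The signal of replicate 1 was 1.18 times that of replicate 2, against a median of 1.00 (interquartile range 0.823 to 1.22) over the 880 thresholded peaks that have a summit within 100 bp in both replicates. The replicate summits were 14 bp apart, against a median of 20.5 bp (7.0 to 48.2 bp) over the same peaks. The set held the candidates of highest pooled signal, and the 6 genes were chosen with this peak known. These ranks and positions therefore describe the peak and support nothing further. The worms were taken whole, so weak binding in many cells and strong binding in few cannot be told apart.

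The cbp-1 interval was 215 bp wide, where 430 bp was the median of the set. Of the 945 intervals, 120 (12.7%) were narrower than that median and 70 were at most 215 bp wide. The cbp-1 interval lay in intergenic sequence, in the 4365 bp between cbp-1 and gcc-2, the neighbouring gene transcribed the other way. The 5′ end of gcc-2 was 3482 bp from the summit. Annotated noncoding RNA genes stood on the far side of the summit. The summit was 516 bp upstream of the 5′ end of R10E11.10, a minus-strand gene, nearer than the 884 bp of cbp-1. The plus-strand gene R10E11.12 had its nearer end 477 bp away. Which of these genes the peak belongs to was not tested. No other protein-coding gene had this summit in its promoter window, defined here as 1000 bp upstream to 200 bp downstream of the annotated 5′ end. In C. elegans many transcripts are trans-spliced, so an annotated 5′ end can lie downstream of where transcription starts.

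Beside this peak the cbp-1 locus held only candidates below the threshold. The pooled list had 13 summits in it, 2 upstream, 7 within the gene and 4 downstream, and the second highest had a pooled signal of 100.8 (rank 2582), so the peak was 5.97 times as high. That second summit lay 685 bp upstream, in an interval that overlaps the peak. In replicate 1 the corresponding summit, 697 bp upstream, had a signal of 96.6 and rank 477, while replicate 2 listed no candidate within 100 bp of it. Within the gene the highest pooled candidate stood in a coding exon 4141 bp downstream of the 5′ end, with a pooled signal of 100.1 (rank 2642) and a signal of 41.8 (rank 7805) in replicate 1 and 58.5 (rank 2277) in replicate 2. At the 5′ end itself a candidate 17 bp into the 5′ untranslated region had a pooled signal of 48.4 and rank 24567. Replicate 1 had a like summit 26 bp upstream (signal 34.5), and the nearest one of replicate 2 was 614 bp downstream (25.1). The locus thus had 1 site high in both libraries and 12 other pooled summits, all outside the thresholded set.

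The peak at hat-1 was the other thresholded one. The gene (WBGene00044069, III 10405248 to 10407248, minus strand) has 1 annotated transcript, and the summit lay 237 bp upstream of its 5′ end in the pool and in replicate 1 and 236 bp in replicate 2. The signal was 134.6 in replicate 1 (rank 198), 146.3 in replicate 2 (rank 161) and 281.7 in the pool (rank 159), in an interval of 430 bp. The replicate summits were 1 bp apart, and the ratio of replicate 1 to replicate 2 was 0.920, inside the interquartile range given above. At both peaks the pooled signal was close to the sum of the replicates' signals, 1.01 times it at cbp-1 and 1.00 times it at hat-1, as it was over the 880 peaks (median 0.999).

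The hat-1 peak lay close to a second gene as well. Its summit fell in an intron of M03C11.3, a gene of the plus strand (III 10405070 to 10415887) that spans hat-1, and its position relative to that gene depends on the transcript. It was 2415 bp downstream of the start of M03C11.3a.1 and 731 bp upstream of the start of M03C11.3b.1, so it lies between the start of that shorter transcript and the start of hat-1, which point away from each other. By gene 5′ ends, hat-1 was the nearest protein-coding gene. The other 7 pooled summits of the locus were lower, from 43.4 to 88.5, so the peak was 3.18 times as high as the next. That next summit lay in a coding exon of chl-1, 6542 bp downstream of the hat-1 5′ end, with a signal of 34.9 (rank 13821) in replicate 1 and 54.1 (rank 3072) in replicate 2. A pooled summit of rank 8734 lay in the 3′ untranslated region of hat-1, 77 bp upstream of chl-1, and replicate 1 listed it with a signal of 44.1 (rank 6446).

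**Figure D1:**
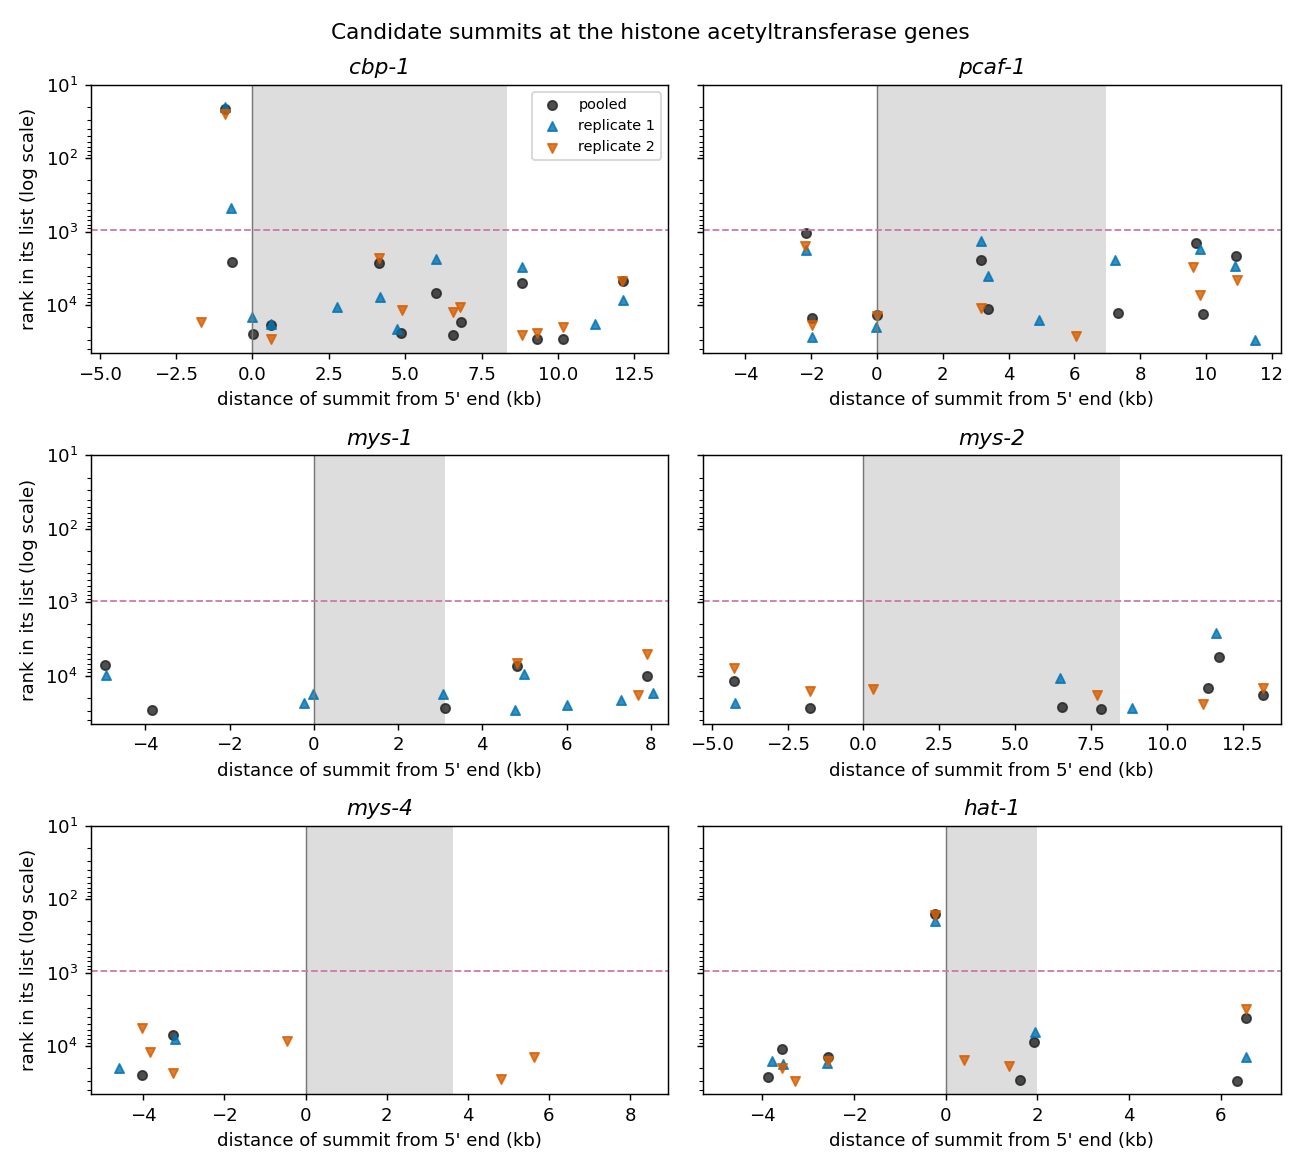
Rank of every candidate summit (vertical log axis, rank 1 the highest of its list) against its distance in kb from the annotated 5′ end of each of the 6 genes (horizontal axis, negative upstream), with the gene body shaded. Black circles are the pooled list, blue and orange triangles replicates 1 and 2, and the dashed line is rank 945. The summits of the thresholded peaks upstream of cbp-1 and hat-1 lie above that line in all 3 lists.

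No peak of the thresholded set was found at pcaf-1, although its locus held 1 candidate just under the threshold. The gene (WBGene00021636, I 3516450 to 3523418, plus strand) had 9 pooled summits, of which the highest, 2163 bp upstream, had a pooled signal of 133.3 and rank 1033. It had a signal of 61.6 (rank 1785) in replicate 1 and 64.9 (rank 1556) in replicate 2, so both libraries listed it at a like rank. Its nearest protein-coding 5′ end was not that of pcaf-1 but that of Y47G6A.18, the divergent neighbour, 1554 bp away. At the 5′ end of pcaf-1 each list had a weak candidate, 6 bp downstream in the pool (62.0, rank 13691), 25 bp upstream in replicate 1 (30.4, rank 19572) and 15 bp downstream in replicate 2 (34.5, rank 13866). Within the gene the highest pooled candidate stood in a coding exon 3168 bp from the 5′ end, with a signal of 102.6 (rank 2398). Its signal was 66.8 (rank 1348) in replicate 1 and 37.3 (rank 10997) in replicate 2, so the replicates differed more there than upstream. Downstream, 4 pooled summits lay over Y47G6A.19, the highest with 119.8 (rank 1431).

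The loci of the 3 MYST genes had no pooled candidate within the 5000 highest. How many other gene loci lack one was not computed, so nothing is read from that. At mys-1 (WBGene00007029, V 7081545 to 7084662, minus strand) the highest of 5 pooled summits had a signal of 76.0 (rank 7237) and lay 4954 bp upstream, in an exon of nhr-286. The promoter window of mys-1 held no pooled candidate. Replicate 1 listed a pair of summits there, 16 bp upstream (31.8, rank 17548) and 227 bp upstream (28.0, rank 23478), and replicate 2 listed none.

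At mys-2 (WBGene00010537, I 14118751 to 14127202, plus strand), whose 5′ end is 100 bp after the end of fld-1 on the same strand, the highest of 7 pooled summits had a signal of 82.2 (rank 5475) and lay in a coding exon of kal-1, downstream of mys-2. In replicate 1 a candidate in a coding exon of kal-1, 11621 bp downstream of the mys-2 5′ end, stood higher (55.8, rank 2586). The promoter window of mys-2 held no candidate in any list, like that of 10693 of all 19973 genes. The nearest pooled summit to the 5′ end was 1748 bp upstream in fld-1, with a signal of 45.2 (rank 27871), and replicate 2 alone had one closer, 303 bp downstream (33.4, rank 15104). A shorter pair of mys-2 transcripts starts 6202 bp further downstream, and a pooled candidate stood 344 bp from that start (46.8, rank 26222).

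At mys-4 (WBGene00007914, I 8333082 to 8336727, plus strand), which begins 297 bp after C34B7.1 on the same strand, there were 2 pooled summits, both over 3 kb upstream. The higher, with a signal of 76.7 (rank 7018), lay between rpl-25.2 and C34B7.1, in the promoter windows of both. Replicate 2 listed a candidate 467 bp upstream of mys-4 (40.6, rank 8569) that neither the pool nor replicate 1 listed. The lists end at a pooled signal of 43.4, so a site below that is not seen.

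Ordered by the highest signal in the promoter window, cbp-1 came first and hat-1 next in all 3 lists. Counting cbp-1 itself, 18 of 19973 genes (0.0901%) had a promoter candidate at least as high in the pool, 19 in replicate 1 and 22 in replicate 2. For hat-1 the numbers were 131 (0.656%), 155 and 120. The level of hat-1 was below that of cbp-1 in each list. The genes were chosen for the cbp-1 peak, so the first place of cbp-1 is not read as a result. After hat-1 came a gap to pcaf-1, with 3594 genes (18.0%) at or above it in the pool, and the order of the rest changed with the list. In replicate 1 mys-1 (31.8) stood just above pcaf-1 (30.4) and mys-4 was not listed, while in replicate 2 mys-4 (40.6) stood above pcaf-1 (34.5) and mys-1 was not listed.

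As counts, 2 of the 6 genes had a thresholded summit in the promoter window, where 2.83% of all protein-coding genes did, and cbp-1 took part in the choice of the genes, so nothing is read from that share. The same 2 of 6 had one in the gene or 5 kb either side, where 12.1% of genes did. With candidates of any rank, 3 of 6 had one in the promoter window in the pool (32.7% of genes), 4 of 6 in replicate 1 (31.9%) and 4 of 6 in replicate 2 (33.2%), and the 4 were not the same genes. In the wider locus all 6 had a candidate in each list, against 88.7% of genes in the pool and 90.9% in either replicate, so these counts are near the background. The count in the promoter window rests on where the window ends. From 500 bp upstream to 100 bp downstream it was 1 of 6, hat-1, against 2.03% of genes. The cbp-1 summit is further upstream.

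The 6 loci together held 44 pooled summits in 92.5 kb, or 0.476 per kb, against 0.299 per kb over the genome. Replicate 1 had 42 and replicate 2 had 41. The genome value also covers sequence outside gene loci, and the density over the loci of all genes was not computed. The cbp-1 locus took part in the choice, so nothing is read from the difference. Of the 44, 14 lay upstream, 15 within and 15 downstream of the genes. The density ran from 0.147 per kb at mys-4 to 0.710 per kb at cbp-1, with 0.667 at hat-1, 0.530 at pcaf-1, 0.381 at mys-1 and 0.379 at mys-2. Outside the thresholded peaks these summits were found again at a rate near that of the genome: 15 of 42 (35.7%) had a summit within 100 bp in both replicates, against 31.0% of the 29055 pooled candidates outside the set. In the set itself the share was 93.1%. By gene, 5 of 13 pooled summits were found in both replicates at cbp-1, 4 of 8 at hat-1, 5 of 9 at pcaf-1, and 1 each at mys-1, mys-2 and mys-4. At the edge of the loci, the outermost pooled summit inside 5 kb lay between 3799 bp (cbp-1, signal 85.6) and 4954 bp (mys-1, 76.0) from the gene. The first one outside lay between 5366 bp (mys-2, 152.6, a thresholded peak) and 6662 bp (pcaf-1, 54.2).

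**Figure D2:**
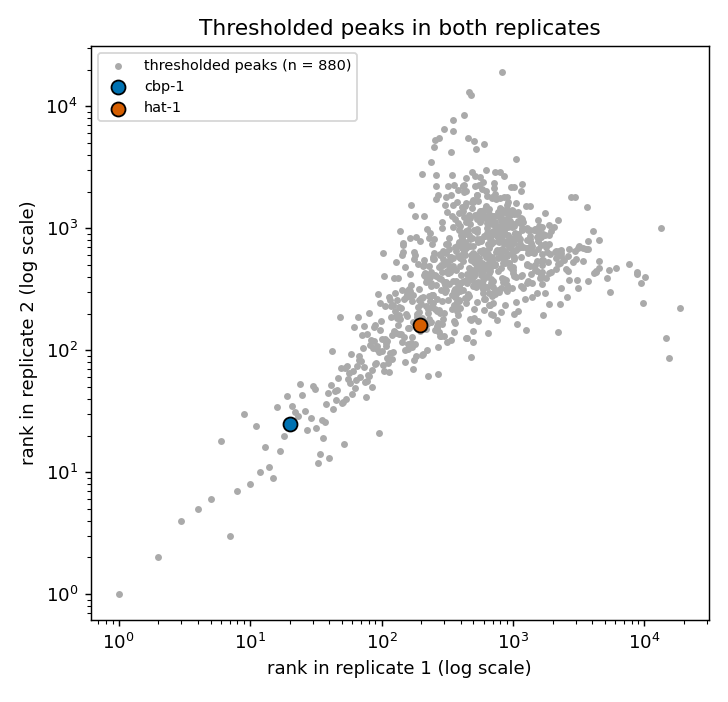
Rank in replicate 1 (horizontal log axis) against rank in replicate 2 (vertical log axis) of the 880 thresholded peaks with a summit within 100 bp in both replicates, in grey, with the peaks of cbp-1 (blue, ranks 20 and 25) and hat-1 (orange, ranks 198 and 161). The set was chosen by pooled signal, so the spread along the diagonal describes a selected set.

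The peak of cbp-1 was set beside the promoter peaks of other genes by rank over the 3 candidate lists; peaks outside promoter windows were not compared. Among 546 genes with a thresholded promoter peak found in both replicates, the smallest sum of absolute log2 rank ratios was 0.749 for ints-4, a gene for a subunit of the Integrator complex, with a pooled signal of 580.7. Next, at 0.864, came lin-54, a DREAM complex gene, and the ribosomal protein gene rpl-12, which share 1 peak (575.3). The following place, at 1.21, was a tie between drr-2 and the H3K4 methyltransferase gene set-16, which also share a peak (564.7). The summits of these 5 genes lay within 370 bp of their 5′ ends, closer than the 884 bp of cbp-1.

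Genes that work with, against or downstream of histone acetyltransferases were examined in the same way. Of the 34 genes found in the annotation from 3 lists, 5 had a thresholded promoter peak, 14.7% against the 2.83% of all genes. The lists were chosen with earlier results of these data known, so nothing is read from that share. None of the 5 peaks was as high as that of hat-1. Among partners of acetyltransferases 3 of 13 had one: ruvb-2, which encodes a RuvB-like ATPase (pooled signal 196.3, 86 bp upstream), mrg-1, which encodes a chromodomain protein related to MRG15 (164.3, 258 bp upstream), and epc-1, a gene related to Enhancer of Polycomb (155.6, 137 bp upstream). The ruvb-2 peak was alike in the replicates, with a signal of 97.4 (rank 467) in replicate 1 and 97.8 (rank 471) in replicate 2. The mrg-1 peak was higher in replicate 1 (101.5, rank 414) than in replicate 2 (58.8, rank 2243), and that of epc-1 was 72.3 (rank 1026) and 82.3 (rank 752). The genes ssl-1 and trr-1, which like epc-1 and mys-1 encode relatives of TIP60 complex subunits, had pooled promoter candidates of 98.7 each (ranks 2775 and 2777). Of this list 11 of 13 had a pooled promoter candidate of any rank, against 32.7% of all genes. The genes cbp-2 and gfl-1 had none in any list, like 10693 of all 19973 genes. The list is not of partners alone, since it includes cbp-2 and cbp-3, by name relatives of cbp-1.

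Deacetylase genes, whose products remove acetyl groups, had 1 of 12, the sirtuin gene sir-2.1 (140.4, rank 905, 70 bp downstream of the 5′ end), close to the threshold. Its signal was 51.1 (rank 3721) in replicate 1 and 85.1 (rank 683) in replicate 2. The next were hda-11 (92.9, rank 3481) and hda-6 (64.0, rank 12473). In all, 7 of the 12 had no promoter candidate in any list, where 10693 of all 19973 genes had none. Genes for bromodomain proteins, which bind acetylated lysines, had 1 of 9, bet-2 (175.8, rank 528, 591 bp upstream), with a signal of 114.0 (rank 300) in replicate 1. Replicate 2 listed no summit within 100 bp of that peak, and its highest candidate in the window was another summit, 427 bp upstream (76.5, rank 935). The bet-2 gene was followed by nurf-1 (113.9, rank 1667) and swsn-9 (52.7, rank 20516). The median pooled signal of the highest promoter candidate was taken over genes that had one. It was 84.3 for partners (11 of 13 genes), 78.5 for deacetylases (4 of 12) and 113.9 for bromodomain proteins (3 of 9). Over all genes it was 64.8 (6529 of 19973). The bromodomain value is that of nurf-1, and genes without a candidate did not enter, so these medians do not describe whole lists. Among the 472 peaks of highest pooled signal only 1 of the 5, that of ruvb-2, was left.

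**Figure D3:**
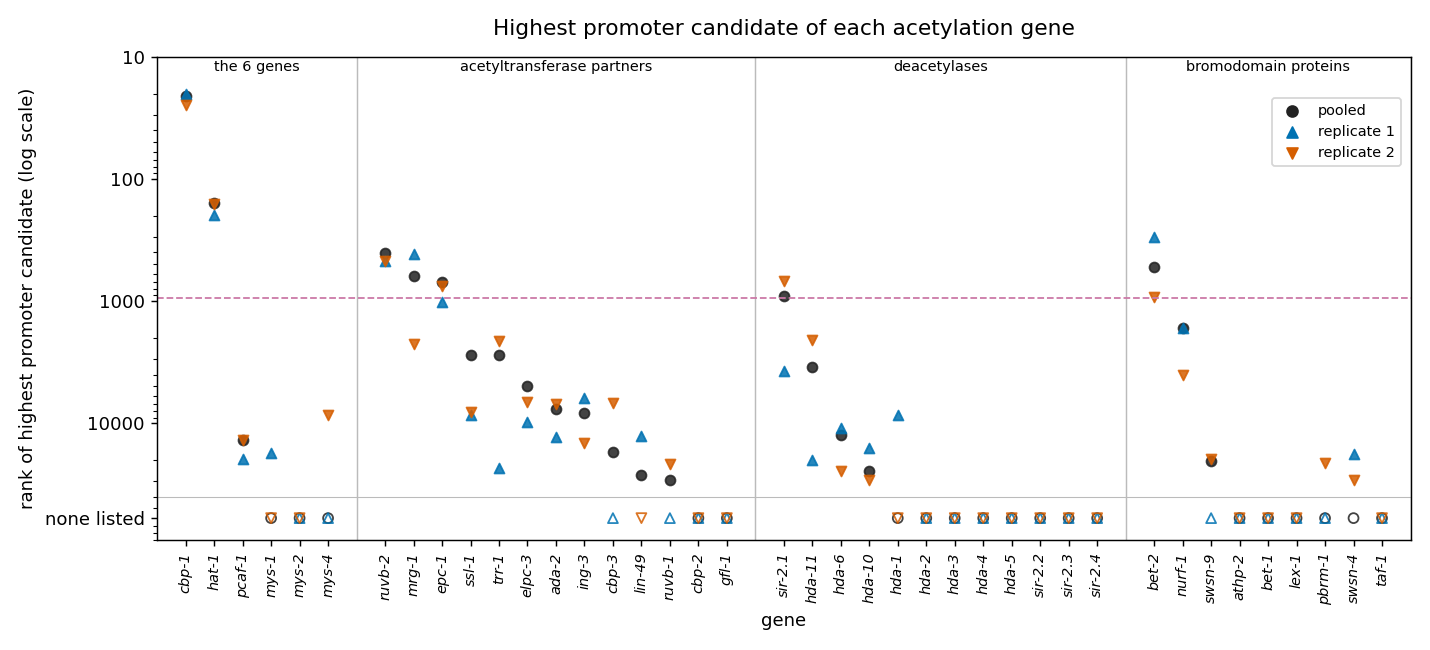
Rank of the highest candidate in the promoter window (vertical log axis, rank 1 the highest) for the 6 genes and the 34 related genes (horizontal axis, ordered by pooled rank within each list), with black circles for the pool and blue and orange triangles for replicates 1 and 2. Open symbols mark genes with no candidate listed in the window and the dashed line is rank 945. In the pool cbp-1 (rank 21) and hat-1 (159) stand above all related genes, of which ruvb-2 (401) is the highest. The 6 genes were chosen for the cbp-1 peak, so its place is not read as a result. The pooled rank of pcaf-1 is 13691, and mys-1, mys-2 and mys-4 have no pooled candidate in the window.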

How the data were processed

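The authors deposited narrowPeak lists on ce11 for each replicate, for the pool and for the IDR-thresholded set; per the deposited notes 1 control file served both replicates and the pool. Neither aligner, nor peak caller, nor IDR cutoff is named in the sources used here. The signal of an interval (column 7) and its −log10 q-value are values of the authors' peak caller, as deposited; the q-values entered no comparison. Summits come from the deposited offset from the interval start.

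Summits were placed on the Ensembl release 115 annotation of WBcel235 with Python 3.11.15, pandas 2.3.3, numpy 2.4.6 and matplotlib 3.10.9. No interval ran past a chromosome end, and all 7 start codons of the 6 genes read ATG in the RefSeq genome. Ranks are by signal within a list. Gene and list windows are stated with the results. Read numbers are in none of the lists: depth is unknown, and no counting error is given. No test was run: there is 1 group, the labels' replicate numbers pair nothing, and the genes, lists and words were chosen with earlier results of these data known. Named were all members, related genes with a thresholded promoter peak, the 3 highest of each related list and the nearest to cbp-1 in rank. The genes ssl-1, trr-1, cbp-2, cbp-3, gfl-1 and pbrm-1 were added after their values were seen. No entry named mys-3 or flt-1 was matched. The script was tested on simulated data.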

Additional observations from a re-analysis of the deposited data

How the results depend on the processing

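With any overlap of 1 bp in place of the summit, 5′ ends of all transcripts, the wider window (2000 bp upstream to 500 bp downstream), the 472 peaks of highest signal, or either replicate alone, 2 of the 6 genes, cbp-1 and hat-1, had a promoter peak. With 500 bp upstream to 100 bp downstream it was 1. Of all genes, 3.19% had a promoter peak with any overlap, 3.08% with all transcripts and 4.02% with the wider window. The share was 2.03% with 500 bp upstream to 100 bp downstream and 1.63% with the 472 peaks. It was 2.67% without replicate 1 and 2.61% without replicate 2. Within 2 kb or 5 kb of the gene 2 of the 6 had a peak (7.47% and 12.1% of all genes). Within 10 kb it was 3 (18.7%), as mys-2 joined. The count of related genes with a promoter peak, 5 in the main setting, was also 5 with the wider window. With 500 bp upstream to 100 bp downstream it was 4, as bet-2 was lost. With 5′ ends of all transcripts it was 6, as pbrm-1 joined. Among the 472 highest peaks it was 1. Without replicate 2 it was 3, when epc-1 and sir-2.1 were lost. Without replicate 1 it was 4, when mrg-1 was lost and bet-2 was counted by another summit than its pooled peak. The loci held 25 pooled summits with 2 kb either side and 79 with 10 kb. The median distance from a 5′ end to the nearest candidate of any rank, 992.5 bp in the pool, was 290.5 bp with all transcripts and 131.5 to 385.0 bp when a replicate was left out, and the cause was not tested. No paired analysis was possible because there is 1 group and no test.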

Other observations

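Neighbouring summits in these lists are never closer than about 200 bp, which bears on how many sites a locus is counted to hold. The smallest gap between summits was 199 bp in the pooled list, and 2631 of 29994 gaps (8.77%) were at most 250 bp. In the loci of the 6 genes 5 of 38 gaps were that short. The pair of summits 884 and 685 bp upstream of cbp-1 is one of them, at the smallest gap of the list. The pairs 2163 and 1960 bp upstream of pcaf-1 and 3168 and 3376 bp inside it are others. Whether such pairs are 1 site or 2 was not tested.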
